A study of Mus musculus with 10 samples.

Results

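The oocyte *Nlrp* genes form a group of 10 mouse genes, *Nlrp2*, *Nlrp4a*, *Nlrp4b*, *Nlrp4c*, *Nlrp4e*, *Nlrp4f*, *Nlrp9a*, *Nlrp9b*, *Nlrp9c* and *Nlrp14*. They were chosen by name, and every 5 kb window that the deposited table assigns to one of them was taken: 111 of 544879 windows, or 10 of 24678 gene names, with between 7 and 17 windows per gene. H3K4me3, the trimethylation of lysine 4 of histone H3 that marks gene starts, had been profiled by ULI-nChIP-seq, a chromatin precipitation for small numbers of cells in which unfixed chromatin is cut with micrococcal nuclease. The cells were germinal vesicle (GV) oocytes, grown oocytes still arrested in meiosis, from C57BL6 females 21 days old, in pools of about 200 oocytes per library. Both genotypes were labelled floxed/floxed for *Setd1b*; the cKO females were Gdf9-Cre positive (libraries 1, 3 and 4) and the WT females Gdf9-Cre negative (libraries 1, 2 and 4). Gdf9-Cre acts in oocytes from early follicle stages onwards. The study's methods also allow heterozygous floxed females with Cre among the controls, which the labels do not name. The comparison asks where H3K4me3 depends on SETD1B, a histone methyltransferase of the SETD1 complexes that contain the CpG-binding protein CXXC1.

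NLRP proteins carry a pyrin domain, a nucleotide-binding NACHT domain and leucine-rich repeats. Some, such as NLRP3, build inflammasomes in immune cells, while the members of this group belong to a branch that has been duplicated repeatedly in rodents and is known for transcripts in oocytes. *Nlrp2* and *Nlrp14* are known as maternal-effect genes, that is, genes whose oocyte product the early embryo needs, and NLRP4F has been placed with the subcortical maternal complex, a protein assembly under the oocyte membrane whose scaffold includes NLRP5 (MATER). *Nlrp9b* is also known as a sensor in intestinal epithelium. By GENCODE M21 (GRCm38), 9 of the genes lie on chromosome 7 and *Nlrp4f* on chromosome 13.

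The 6 H3K4me3 libraries held between 10856015 and 32775874 reads in windows and the 4 inputs between 20756128 and 26566505. Values are RPKM that the authors shifted and scaled so that the 40th percentile (1.23) and the 99th percentile (6.77) are equal in all libraries, a linear scale without a true zero. A window with no read took a value between -1.02 and 0.81 depending on the library, on average -0.31 in cKO and 0.36 in WT, so values under about 1 say little about genotype. The targeted gene, *Setd1b*, fell in the window holding its start, which the table assigns to *AI480526* (cKO mean 4.36, WT mean 7.11, adjusted p = 0.0332, limma) and in the next window into the gene, where values were 2.17, 3.21 and 3.25 in cKO and 8.34, 9.69 and 7.37 in WT (adjusted p = 0.0124). The start windows of 8 oocyte marker genes had WT means between 4.69 and 7.79. Those of 5 granulosa cell markers summed to between 20.9 and 21.9 in cKO and between 14.1 and 15.4 in WT, with no marker window without reads, and 1 of the 5, *Foxl2*, a transcription factor of follicle cells, passed as a gain (7.06 against 4.21, adjusted p = 0.0415). The 3 leukocyte markers summed to between 11.6 and 14.5 in cKO and between 10.6 and 14.3 in WT. H3K4me3 at marker promoters is not expression, and the part of somatic cells in the pools was not tested; in such pools fewer marked oocytes and less mark per oocyte cannot be told apart.

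In WT oocytes most members carried 1 peak of H3K4me3 at the annotated start and little elsewhere, as the profiles along the 10 genes show. By the WT mean of its highest window, the order was *Nlrp2* (7.84), *Nlrp14* (7.22), *Nlrp9c* (6.91), *Nlrp4f* (5.51), *Nlrp4a* (5.12), *Nlrp9a* (4.98), *Nlrp4b* (4.46), *Nlrp4c* (4.19), *Nlrp9b* (2.84) and *Nlrp4e* (2.15), all on the same normalised scale and over the same window length. The WT libraries of neighbours in this order overlapped except between *Nlrp9c* and *Nlrp4f*, between *Nlrp4c* and *Nlrp9b* and between *Nlrp9b* and *Nlrp4e*. In cKO oocytes the order of these same windows was led by *Nlrp4f* (5.40), whose lowest cKO library (4.99) lay above the highest of the other 9 genes (4.72 at *Nlrp14*).

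**Figure D1:**
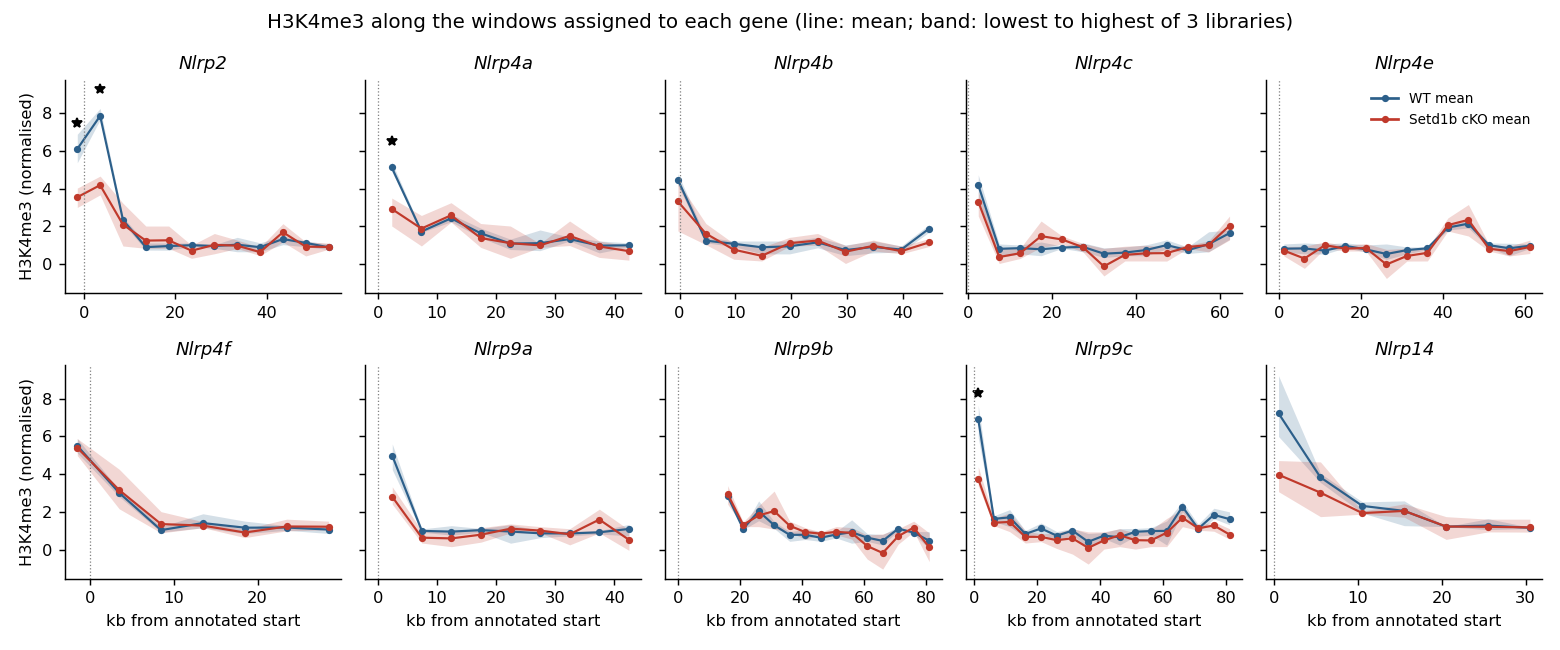
H3K4me3 (normalised, linear, y axis) in every 5 kb window assigned to each of the 10 genes, by distance of the window's midpoint from the annotated start in kb (x axis, positive into the gene). Lines are means and bands run from the lowest to the highest of 3 libraries of WT (blue) and cKO (red), and stars mark the 4 windows called lost, all within 5 kb of a start.

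Loss of SETD1B was accompanied by lower H3K4me3 at a part of these starts, and by no called change elsewhere in the genes. Of the 111 windows, 4 (3.60%) passed as losses and 0 as gains (limma, adjusted p under 0.05 over all windows), where 0.454% of all windows passed as losses and 0.563% as gains. The 4 lay at the starts of *Nlrp2* (a pair of adjacent windows), *Nlrp9c* and *Nlrp4a*. The cKO libraries lay without overlap below the WT libraries in 10 of the 111 windows (9.95% of all windows) and above them in 2 (9.88% of all windows). Of the 10 start windows, 3 were called lost (0.638% of the 48576 start windows of all genes were, and 0.896% were called gained), and in 5 the genotypes did not overlap, cKO being lower (9.38% of all start windows). The start windows had a median difference of -1.66 normalised units, against -0.01 over all start windows, and 9 of 10 were lower in cKO, as were 50.7% of all start windows. Most start windows in the genome had lower WT values than 9 of these, and the share lower in cKO varied with the level. Of start windows with a WT mean from 4 to 5, where 3 members lay, 46.7% were lower in cKO (median difference 0.08), and from 5 to 6 (2 members) 56.3% (-0.14). From 6 to 7 (2 members) the share was 71.5% (-0.53, with 19.3% lower without overlap and 2.34% called lost), and from 7 to 8 (1 member) 87.5% (-1.05, 31.4% and 5.10%). Windows picked for a high WT mean lean towards negative differences; by the mean of all 6 libraries 9 members lay between 3 and 6, and in the bands of 1 unit over that range between 42.6% and 47.7% of start windows were lower. For the windows in which the genotypes did not overlap, an exact permutation test gives p = 0.1, the smallest that 3 libraries against 3 allow. These calls depended on the scale and on single libraries: none of the 111 windows passed on a log2 scale, after quantile normalization, or without WT library 1, 2 or 4 or cKO library 4, fits in which at most 1 of all windows passed, while 2 passed without cKO library 3 and 5 without cKO library 1. The differences kept their sign: the 4 called windows were lower in cKO in all 6 fits without 1 library and in the 8 other settings. With 1 library left out the start windows of *Nlrp2*, *Nlrp4a* and *Nlrp9c* differed by -2.91 to -2.16, -2.48 to -1.74 and -3.65 to -2.79, and after quantile normalization by -2.48, -2.26 and -3.15. An edgeR test on the recovered reads, which called 6145 losses and 5369 gains among 503726 windows, called none of the members, with 7 windows at an unadjusted p under 0.05 (13.2% of all windows were), of which 5 were lower in cKO. In reads, which do have a true zero, the pair of *Nlrp2* windows and the starts of *Nlrp9c*, *Nlrp9a*, *Nlrp4a* and *Nlrp14* had log2 fold changes between -1.26 and -0.95, and the 5 of them at an unadjusted p under 0.05 had adjusted p between 0.266 and 0.340 (edgeR). Reads in the start windows ranged from 0 (*Nlrp4e*) to 228 (*Nlrp9c*) per library.

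**Figure D2:**
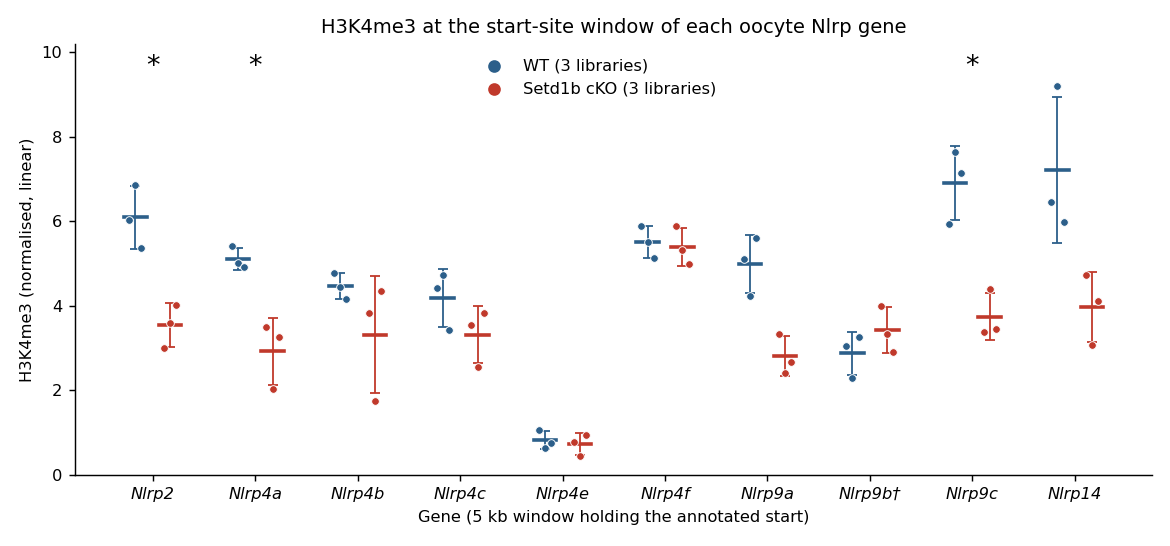
H3K4me3 (normalised, linear, y axis) in the 5 kb window holding the annotated start of each gene (x axis), with 1 point per library, horizontal bars at the mean and error bars of 1 SD over 3 libraries; asterisks mark called losses, and the dagger marks *Nlrp9b*, whose start window the table assigns to *Ceacam20*. WT points lie above all cKO points at *Nlrp2*, *Nlrp4a*, *Nlrp9a*, *Nlrp9c* and *Nlrp14*, and the genotypes overlap at the other 5.

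*Nlrp2*, whose product oocytes supply to the embryo, showed the widest lost stretch, 2 adjacent windows. The gene runs on the minus strand from 5351035 to 5298547 on chromosome 7. In the window over its first kilobases (chr7:5345001-5350000, within the first intron) H3K4me3 was 3.67, 4.66 and 4.22 in cKO and 8.24, 7.65 and 7.64 in WT. The WT libraries were close together and all far above the highest cKO library. The difference was -3.66 ± 0.38 (SE; adjusted p = 0.0130, limma), the largest drop among the 111 windows. Over the window that holds the start itself (chr7:5350001-5355000) the values were 3.00, 3.61 and 4.03 in cKO and 6.04, 6.87 and 5.37 in WT, a difference of -2.55 ± 0.46 (adjusted p = 0.0379). This second window also holds the starts of *Gm5065* and of the pseudogene *Gm45147*, so its signal cannot be given to 1 gene, while the first holds no other annotated start. With 1 library left out, the adjusted p ranged from 0.0163 to 0.0872 in the inner window and from 0.0407 to 0.132 in the start window. The next window inward (chr7:5340001-5345000) had means of 2.10 in cKO and 2.34 in WT. The promoter of *Nlrp2* is shown because it lies inside the called start window. It is the 150 bases before the RefSeq start on the gene's strand (chr7:5351036-5351185, minus strand, GRCm38.p6), with capitals marking CCAAT, the pentamer known as the binding site of the factor NF-Y, on either strand.
*Nlrp2*: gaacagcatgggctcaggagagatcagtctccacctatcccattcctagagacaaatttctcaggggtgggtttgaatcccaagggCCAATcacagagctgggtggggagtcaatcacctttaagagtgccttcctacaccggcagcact

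The *Nlrp9* genes are 3 close paralogs, and they differed in what was found at their starts. At *Nlrp9c* (minus strand, start at 26403700, window chr7:26400001-26405000) H3K4me3 was 3.39, 4.40 and 3.45 in cKO and 5.94, 7.65 and 7.13 in WT, a difference of -3.16 ± 0.49 (SE; adjusted p = 0.0275, limma). The genotypes were separated by more than 1 unit, between the lowest WT and the highest cKO library. The adjusted p ran from 0.0308 to 0.111 with 1 library left out (limma). Over 7 other settings it ran from 0.00721 to 0.437, the highest on log2(value + 0.1). These leave out a fit that pairs libraries by replicate number (replicate block), given at the end. At *Nlrp9a* (plus strand, start at 26535023, window chr7:26535001-26540000) the values were 3.34, 2.42 and 2.68 in cKO and 5.10, 4.24 and 5.61 in WT, again without overlap. Its difference of -2.17 ± 0.44 just missed the threshold (adjusted p = 0.0506, limma). It passed with an intensity trend, with either filter on low windows and without cKO library 1 (adjusted p from 0.0316 to 0.0482, limma). It also passed with the replicate block, whose difference rests only on the paired libraries and which is given at the end. At *Nlrp9b* the gene record begins at 19991465, in a window (chr7:19990001-19995000) that the table gives to *Ceacam20* and whose values of 4.00, 3.34 and 2.92 in cKO and 3.06, 2.30 and 3.27 in WT overlapped (adjusted p = 0.504). The first window assigned to *Nlrp9b* (chr7:20005001-20010000), which holds the RefSeq start at 20008023, was its highest, with 3.06, 2.42 and 3.40 in cKO and 2.85, 2.88 and 2.79 in WT. There the difference was 0.12 ± 0.36 (adjusted p = 0.889), and the SE allows a change of either sign. The difference in change between *Nlrp9b* and its paralogs was not tested. The 150 bases before the starts of *Nlrp9a* (chr7:26534873-26535022, plus strand) and *Nlrp9c* (chr7:26403701-26403850, minus strand) are shown, and each holds CCAAT at 3 places. The 300 bases around these starts, of which they are a part, align over 290 columns, gaps counted, with 84.8% identity.
*Nlrp9a*: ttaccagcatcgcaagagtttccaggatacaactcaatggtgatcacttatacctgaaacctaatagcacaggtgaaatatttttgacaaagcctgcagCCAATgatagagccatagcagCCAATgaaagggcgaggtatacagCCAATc
*Nlrp9c*: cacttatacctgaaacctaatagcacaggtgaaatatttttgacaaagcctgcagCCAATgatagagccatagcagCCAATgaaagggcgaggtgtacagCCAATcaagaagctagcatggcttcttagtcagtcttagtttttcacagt

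Among the *Nlrp4* genes 1 start window of 5 was called lost. *Nlrp4a*, transcribed from the plus strand, starts at 26435113 in the window chr7:26435001-26440000, where H3K4me3 was 3.50, 2.02 and 3.25 in cKO and 5.41, 5.02 and 4.92 in WT. All WT libraries were higher than all cKO libraries, and the difference of -2.19 ± 0.44 (SE) was just under the threshold (adjusted p = 0.0496, limma). With 1 library left out the adjusted p ranged from 0.0297 to 0.173. Relative to input the genotypes overlapped. The share of H3K4me3 reads over the share of input reads was 1.81 and 1.73 in cKO libraries 1 and 4. It was 2.97 and 1.66 in WT libraries 1 and 4. *Nlrp4b* (start at 10687789, chr7:10685001-10690000) had 3.84, 1.76 and 4.36 in cKO and 4.79, 4.44 and 4.17 in WT. Here the cKO library 3 stood low and library 4 lay inside the WT range, and the difference of -1.15 ± 0.60 did not pass (adjusted p = 0.419) and was -0.36 without cKO library 3. *Nlrp4c* (start at 6045161, chr7:6045001-6050000) had 3.56, 2.55 and 3.83 in cKO and 4.42, 4.73 and 3.42 in WT, also overlapping, with a difference of -0.88 ± 0.47 (adjusted p = 0.432), or -0.49 without cKO library 3. *Nlrp4a*, *Nlrp4b* and *Nlrp4c* share promoter sequence. It was compared over the 300 bases around the second RefSeq start of *Nlrp4a* (26435614), the first of *Nlrp4b* (10687793) and the start of *Nlrp4c*. These align pairwise with identities from 73.6% to 75.1%, gaps counted. The 150 bases before each start (chr7:26435464-26435613, chr7:10687643-10687792 and chr7:6045011-6045160, plus strand) are shown to compare a called start with those not called. All hold CCAAT. The promoter at the first start of *Nlrp4a* (26435113), in the same window, holds none in 300 bases.
*Nlrp4a*: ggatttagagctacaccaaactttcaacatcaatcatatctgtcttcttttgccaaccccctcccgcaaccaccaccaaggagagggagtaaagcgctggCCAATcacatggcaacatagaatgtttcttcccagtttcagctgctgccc
*Nlrp4b*: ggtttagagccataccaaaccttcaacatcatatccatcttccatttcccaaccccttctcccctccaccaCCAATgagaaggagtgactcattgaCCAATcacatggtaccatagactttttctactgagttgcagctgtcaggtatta
*Nlrp4c*: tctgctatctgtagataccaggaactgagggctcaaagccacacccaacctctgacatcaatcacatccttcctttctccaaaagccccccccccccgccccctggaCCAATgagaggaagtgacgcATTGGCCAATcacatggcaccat

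*Nlrp4f*, the member linked to the subcortical maternal complex, showed no called change. On chromosome 13 (minus strand, start at 65205977, window chr13:65205001-65210000) H3K4me3 was 5.89, 5.32 and 4.99 in cKO and 5.88, 5.51 and 5.13 in WT, the libraries of the genotypes covering nearly the same range. The difference was -0.11 ± 0.38 (SE; adjusted p = 0.905, limma), and 0.10 without cKO library 4. The following window (chr13:65200001-65205000) also overlapped, with means of 3.17 in cKO and 3.02 in WT. The 150 bases before the RefSeq start of *Nlrp4f* at 65205716 (chr13:65205717-65205866, minus strand) are given as those of the member with a high start window and a difference near 0. The 300 bases around that start hold no CCAAT. This RefSeq start lies 261 bases inside the GENCODE gene record, so no base before the GENCODE start was searched.
*Nlrp4f*: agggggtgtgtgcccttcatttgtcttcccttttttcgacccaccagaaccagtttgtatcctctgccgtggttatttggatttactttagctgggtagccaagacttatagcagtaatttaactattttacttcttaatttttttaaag

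*Nlrp4e* had no peak at its annotated start (23301192, chr7:23300001-23305000), where the values were 0.79, 0.44 and 0.94 in cKO and 1.07, 0.65 and 0.75 in WT. They rest on 0, 11 and 34 reads in cKO and 5, 7 and 15 reads in WT, in each library fewer than in its median window (between 11 and 47 reads). Its highest window lay inside the gene (chr7:23345001-23350000), with 2.39, 1.49 and 3.16 in cKO and 2.22, 2.30 and 1.92 in WT, and no start of another gene is annotated in it. That difference, 0.20 ± 0.44, did not pass (adjusted p = 0.837).

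*Nlrp14*, on its own further along chromosome 7 (plus strand, start at 107166990), had the highest start window of the group in WT and the most scattered. In chr7:107165001-107170000 H3K4me3 was 4.72, 3.08 and 4.12 in cKO and 6.46, 9.21 and 5.99 in WT. The genotypes did not overlap, but WT library 2 stood well above the others and the WT SD of 1.74 was the widest of the start windows. The difference of -3.25 ± 0.76 (SE) did not pass (adjusted p = 0.0773, limma), though it did with an intensity trend (adjusted p = 0.0105, range over 7 settings 0.0105 to 0.446). These 7 settings leave out the replicate block, whose difference rests only on the paired libraries and which is given at the end. The window also passed in that fit. Without WT library 2 the difference was -2.25. In the next window (chr7:107170001-107175000) the values of 2.67, 1.76 and 4.65 in cKO and 3.90, 3.56 and 4.05 in WT overlapped (adjusted p = 0.510).

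**Figure D3:**
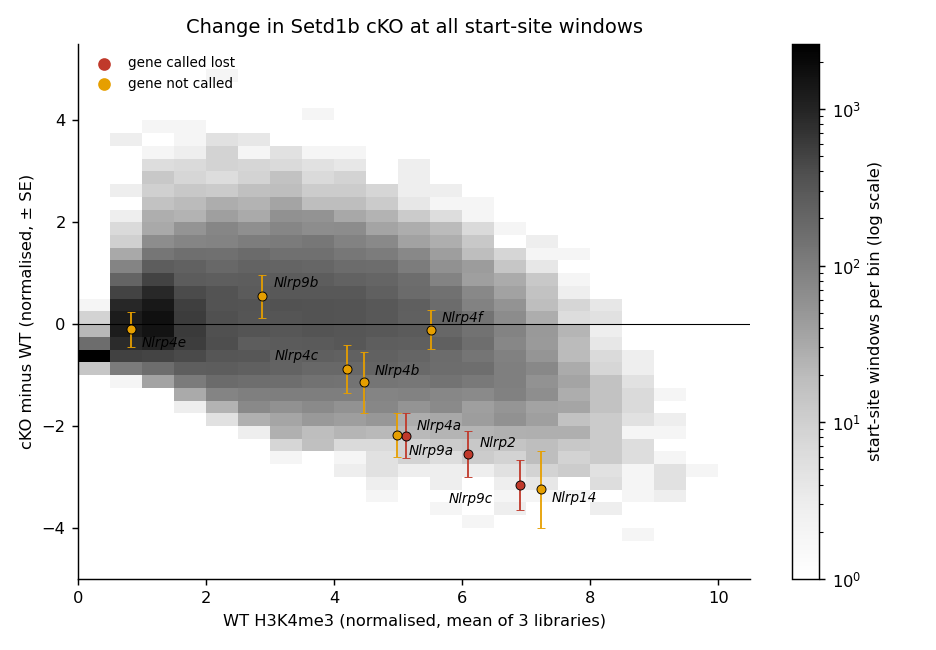
The cKO minus WT difference (y axis, normalised, linear) against the WT mean (x axis) in the start windows of all genes, as a grey density of 48576 windows with a log colour scale, and in the 10 members as points with bars of 1 SE. *Nlrp9c*, *Nlrp2* and *Nlrp4a* (red, called) lie at -3.16, -2.55 and -2.19 and *Nlrp4f* at -0.11; the WT mean enters both axes, so high WT values lean towards negative differences.

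Away from the starts the members had little H3K4me3. In the 93 windows with a midpoint over 7.5 kb downstream of the start the median WT mean was 0.98, against 1.46 over all windows of the genome, and 72 of them (77.4%) were under 1.23, the 40th percentile. These count from the GENCODE start and so include 2 windows of *Nlrp9b* within 7.5 kb of its RefSeq start, one of them its highest; without both the median WT mean of the other 91 was 0.98, with 71 (78.0%) under that percentile. None was called, the lowest adjusted p being 0.317 (limma), and differences ranged from -0.81 (*Nlrp9c*, chr7:26320001-26325000) to 0.75 (*Nlrp9b*, chr7:20020001-20025000). The median of these differences was -0.09, against -0.10 over all windows, and a window with no read in any library differs by -0.67 through the scale alone. Averaged over all windows of a gene, no member was called (0.523% of all genes were called lower and 1.39% higher), with 3 at an unadjusted p under 0.05 (22.4% of all genes were), and 0 in an edgeR test on summed reads, with 2 unadjusted (14.5% of all genes). The lowest adjusted p were 0.153 for *Nlrp14* (2.09 ± 0.15 in cKO against 2.73 ± 0.28 in WT, SD, n = 3), 0.162 for *Nlrp2* (1.60 ± 0.07 against 2.12 ± 0.14) and 0.219 for *Nlrp9c* (1.02 ± 0.26 against 1.51 ± 0.07). With the median over a gene's windows in place of the mean, these differences went from -0.64 to -0.063, from -0.51 to 0.089 and from -0.49 to -0.25. The other 7 differences lay between -0.31 (*Nlrp9a*) and 0.03 (*Nlrp4f*), with adjusted p from 0.416 to 0.969. In 4 genes, these 3 and *Nlrp4b*, the cKO libraries lay without overlap below those of WT (8.34% of all genes).

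Paralogs can share reads, and the authors removed reads that mapped poorly, so input coverage was set beside the H3K4me3 values. The mean input of the members' windows was 0.951 and 0.958 of the median window in the cKO libraries and 0.955 and 0.970 in the WT libraries. Of the 111 windows, 6 (5.41%) had an input under 0.5 of the median, as did 11.3% of all windows; they lay inside *Nlrp4c*, *Nlrp9b*, *Nlrp4e* and *Nlrp9c*. In those 6 windows between 11.5% and 44.6% of all 75-base words, the read length, occurred once in the genome, and in the other windows at least 47.2%. Over the 111 windows this share and the input followed each other (Pearson r = 0.890, Spearman rho = 0.637, given as a description, since windows of a gene share sequence and libraries). None of the 6 was called, and their WT means were at most 0.815. In the 4 called windows the input, as a mean of 4 libraries, was between 0.830 and 1.12 of the median. At least 97.2% of their words were unique, with at most 0.32% shared with another member. The share of H3K4me3 reads over that of input reads was available for libraries 1 and 4. At the *Nlrp2* start it was 1.65 and 2.34 in cKO and 3.87 and 4.15 in WT. At the *Nlrp9c* start it was 1.77 and 1.77 in cKO and 3.38 and 3.62 in WT. At the *Nlrp4a* start the genotypes overlapped, with 1.81 and 1.73 in cKO and 2.97 and 1.66 in WT.

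**Figure D4:**
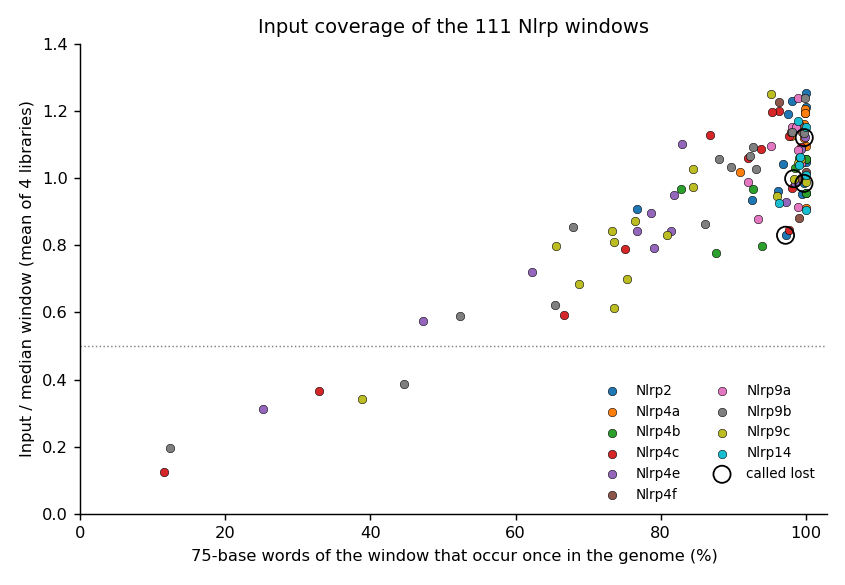
Mean input of 4 libraries relative to the median window (y axis) against the share of 75-base words that occur once in the genome (x axis, percent) for each of the 111 windows, coloured by gene. The 6 windows under the dotted line at 0.5 have at most 44.6% unique words, and the 4 called windows (ringed) lie between 0.830 and 1.12.

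The members' starts were poor in CpG. Their start windows held a median of 30 CpG (from 12 in *Nlrp9a* to 53 in the *Nlrp9b* window), against 51 over all start windows. The 5 start windows without overlap of the genotypes held between 12 and 37 CpG and the other 5 between 25 and 53. RefSeq promoter sequences, 250 bases before and 50 after a start, were matched for 9 of the 10 genes (11 promoters) and held a median of 2 CG (from 0 to 7), against 7 over 32851 promoters. CCAAT, searched on both strands and chosen after the sequences had been read, occurred in 8 of the 11 promoters and in 7 of the 9 genes, against 37.4% of all promoters, and at 2 or more places in 5 of 11, against 11.7%. The genes without it were *Nlrp4f* and *Nlrp9b*, and the promoter at the first start of *Nlrp4a* also held none. The RefSeq starts of *Nlrp4f* and *Nlrp9b* lie 261 and 16558 bases inside their GENCODE gene records. No base before the GENCODE start of either gene was searched. TGATTG, an element of the oocyte factor LHX8, occurred in 8 of 11 (14.0% of all promoters); its reverse complement is contained in CCAAT followed by CA, so the counts of both overlap. CANNTG, the E-box read by FIGLA, occurred in 10 of 11 (72.3%), TAATTG, an element of NOBOX, in 2 (8.0%), and the TATA box TATAAA in 1 (13.6%). Related promoters repeat the same letters, so these genes are not independent, and a match is not a bound site.

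Among other NLR genes, most of them known for roles in immunity, 1 of 17 start windows was called lost and none gained. It was that of *Nlrp6*, a sensor of the gut epithelium (cKO mean 2.24, WT mean 5.04, adjusted p = 0.0282, limma); the median difference of the 17 was 0.24. Of 6 inflammasome partners (*Pycard*, *Casp1*, *Casp4*, *Gsdmd*, *Il1b*, *Il18*) none passed, the lowest adjusted p being 0.491. Of 6 genes of the subcortical maternal complex (*Nlrp5*, *Ooep*, *Tle6*, *Khdc3*, *Zbed3*, *Padi6*) none passed either, but all 6 were lower in cKO, 4 without overlap, with a median difference of -1.97. Their WT means were between 6.14 and 7.66, 3 of them from 6 to 7 and 3 from 7 to 8, levels at which most start windows were lower (71.5% and 87.5%, and 19.3% and 31.4% without overlap). By the mean of all 6 libraries 2 lay from 5 to 6 and 4 from 6 to 7, where 47.7% and 55.9% of start windows were lower and 10.3% and 13.9% lay without overlap. *Nlrp5*, the scaffold gene next to *Nlrp4e*, had 4.33, 5.19 and 5.28 in cKO and 6.51, 7.26 and 6.80 in WT at its start, a difference of -1.92 ± 0.39 (SE; adjusted p = 0.0522). The 8 oocyte marker starts summed to between 41.7 and 45.7 in cKO and between 46.8 and 53.9 in WT. None passed. Of the 8, 6 were lower in cKO, 4 of them without overlap (9.38% of all start windows). *Figla* differed by 0.05 ± 0.71 (SE), which gives no direction. *Gdf9* was higher in cKO, with means of 10.7 against 7.46 and the lowest adjusted p of the list (0.0598, limma). Its promoter drives the Cre, which by the labels only the cKO females carried. Transgene and loss of SETD1B cannot be told apart in that window.

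Within 50 kb of the members, 1 of 177 windows of other genes or of no gene was called. Of all windows, 0.454% passed as losses and 0.563% as gains. The called window (chr7:19970001-19975000) was a loss in *Ceacam20*, which encodes a cell adhesion molecule and ends just before *Nlrp9b*. There the values were 1.89, 1.23 and 1.33 in cKO and 4.42, 5.41 and 3.42 in WT (adjusted p = 0.0332, limma). Over the 6 libraries, the mean of the 10 gene values was 1.46, 1.31 and 1.34 in cKO and 1.69, 1.63 and 1.57 in WT. Among 10326 gene names with at least 5 windows, the 5 profiles most like it were those of *Nfya*, a subunit of NF-Y (Pearson r = 0.995), the DNA glycosylase gene *Neil3* (0.990), the zinc finger gene *Zfp111* (0.982), the prostaglandin receptor gene *Ptger4* (0.981) and *Rab3gap1* (0.979). With 6 points, 49 names exceeded 0.95, and none of the 5 passed as a gene mean (adjusted p from 0.107 to 0.357, limma). A link between *Nfya* and the members or their CCAAT sites was not tested.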

How the data were processed

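H3K4me3 and input libraries of 3 and 2 pools per genotype were analysed. The authors trimmed reads (Trim Galore 0.4.2), mapped them to GRCm38 (Bowtie2 2.2.9), removed low-quality mappings and quantified 5 kb windows in SeqMonk, leaving out windows of high input. The study describes a further library per genotype that was excluded for poor enrichment; these are not analysed here. The deposited H3K4me3 values are a score, the authors' enrichment-normalized RPKM (linear), and the deposited input values a signal, reads per window scaled to library size (RPM). Every value was a whole number of steps, to within 0.001 of a read, which gave the reads (100% of values).

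Windows were tested with limma 3.58.1 (R 4.3.3; 3 against 3 libraries, no trend, no block, two-sided, Benjamini-Hochberg over all 544879 windows, adjusted p under 0.05), gene means likewise over 24678 names, and reads with edgeR 4.0.16 (TMM, quasi-likelihood, at least 10 reads); both were tested on simulated data. Nothing in the labels says which females the pools of a genotype came from, so p-values measure the spread between these pools. Starts are those of GENCODE M21 gene records; promoters come from RefSeq (GRCm38.p6). The genes named are the 10 members with every called window, start window, highest window and largest difference, *Nlrp5*, list genes and neighbours that passed, and the 5 most similar profiles. The members and lists were chosen with earlier results of these data known; CCAAT and the RefSeq start were added after the data were seen. Gene expression was not analysed here. Python 3.11.15, numpy 2.4.6, pandas 2.3.3 and scipy 1.17.1 were used.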

Additional observations from a re-analysis of the deposited data

How the results depend on the processing

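The 4 called windows became 0 on log2(value + 1), on log2(value + 0.1), after quantile normalization, with edgeR on whole reads and at an adjusted p under 0.01, and between 0 and 5 with 1 library left out; they became 6 with an intensity trend, 5 with a mean of at least 1 or an input of at least 0.5 of the median, and stayed 4 with windows taken by overlap with the gene body. No gene mean passed in any of 16 alternatives. The mean input of the members was 0.958 of the median window, and 0.995 when the median over their windows was taken. Of the start window differences, 102 alternatives kept direction and side of the threshold, 26 lost the call, 7 gained it and 5 changed sign, all 5 in genes that were not called; the start of *Nlrp9b* taken from RefSeq gave 0.12.

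The sign changes at start windows were those of *Nlrp4e* with edgeR (log2 0.45) and with 1 library left out (range -0.21 to 0.040), and of *Nlrp4f* with 1 library left out (-0.35 to 0.098). Those of gene means were all of uncalled values. They were *Nlrp2* with the median over windows (0.089), *Nlrp4c* after quantile normalization (0.033) and with edgeR (log2 0.15), *Nlrp4e* with edgeR (log2 0.24) and with 1 library left out (-0.24 to 0.018), *Nlrp4f* with the median over windows (-0.019), with edgeR (log2 -0.10) and with 1 library left out (-0.14 to 0.13), and *Nlrp9b* on log2(value + 0.1) (-0.010), by gene body overlap (-0.0043) and with 1 library left out (-0.075 to 0.19). The causes were not tested.

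Replicate numbers are shared by 2 pairs of libraries only, and the labels do not tie a number to a day or batch. Deviations from the genotype means correlated at 0.319 for number 1 and 0.0190 for number 4. With these 2 pairs and the replicate block, 6 member windows and no gene mean passed, among all windows 19755 losses and 13678 gains. The libraries without a shared number add nothing to the difference in this fit, which leaves 1 residual degree of freedom per window. Its p-values therefore rest on 2 pairs and on a spread estimated across all windows. They are not stronger evidence than those of the fit on all libraries. The start windows of *Nlrp9a* (-2.35, adjusted p = 0.000106, limma) and *Nlrp14* (-1.81, adjusted p = 0.00569, limma) passed. Those of *Nlrp4b* and *Nlrp4c*, not called, became -0.38 and -0.22, and the gene mean of *Nlrp4f* became -0.076.

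The 5 start windows without overlap held as few as 23 reads in a library.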
